A study of Mus musculus with 56 samples.

Results

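Cultured mouse cortical neurons exposed to topotecan at 1 µM were compared with neurons given vehicle, with 6 arrays in each group. These are 12 of the 56 arrays of the study, chosen by their titles, and each carried the same 41345 probe sets, which were all used. The cells came from C57BL6 embryos of embryonic day 13 to 15 and had grown for 7 days in vitro when the drug or vehicle was added. RNA was taken 24 or 72 h later, and the labels do not say which of these times applies to these arrays. No genotype, transgene or sorting step is given, and the vehicle's composition is not named. Nothing in the labels says that the replicates came from separate cultures, so p-values measure the spread between arrays, which may be partly technical, and the number of arrays limits the precision.

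Topoisomerase I relaxes DNA ahead of and behind a moving RNA polymerase by cutting and resealing one strand. Topotecan, a water-soluble relative of camptothecin used against tumours, traps the enzyme on the cut DNA. In cultured neurons topotecan is known for lowering the expression of very long genes, many of which encode synaptic and adhesion proteins, and for relieving the silencing of the paternal Ube3a allele, which depends on a long antisense transcript.

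Values are log2 of the deposited intensity, and a change is the mean with topotecan minus the mean with vehicle, ± its standard error. Adjusted p-values are Benjamini-Hochberg values over all probe sets from limma, with a threshold of 0.05, and "rose" and "fell" are used for genes past it. A gene was represented by its brightest probe set with 1 gene symbol, which gave 22180 genes, and its span is the annotated distance from start to end in RefSeq. A level under 5.28, the 40th percentile of the mean levels of these genes, is called dim, and background limits how far such a value can fall. Mean intensities ran from 178 to 183 over the 12 arrays, and the median log2 value was 5.37 to 5.43 in vehicle and 5.46 to 5.52 with topotecan. The first principal component held 53.1% of the variance and separated the groups.

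One array stood apart, vehicle 4. It lay at -9.1 on the first component, where the other vehicle arrays lay between -28.3 and -48.6, and its median correlation with its own group was 0.9742 against 0.9802 or more for the others. Its mean level over the pan-neuronal markers was 9.17, where the other vehicle arrays reached at least 9.56. Over the excitatory neuron markers it had 7.62 against at least 7.90. Among the vehicle arrays it was the highest for markers of astrocytes (8.33), proliferating cells (7.69) and fibroblasts and mural cells (7.94). Their part in its position was not tested. Without it 2787 genes fell and 3626 rose, where the full set of arrays gave 2435 and 3238, and every call among the 190 genes named by rule was kept. Most of those genes were chosen as called genes whose groups do not overlap, so that their calls were kept follows largely from the choice.

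The drug's target was measured at a slightly higher level. Top1, which encodes topoisomerase I, had 9.12, 9.18 and 9.23 as its lowest, median and highest level in vehicle and 9.23, 9.43 and 9.47 with topotecan, a rise of 0.22 ± 0.06 (adjusted p = 0.018). The highest vehicle array met the lowest treated array, so the groups touched, and the call was lost when arrays were centred on their medians. Top2b, the topoisomerase II form of non-dividing cells, had a change of 0.05 ± 0.07 (adjusted p = 0.68) that turned to -0.05 with centred arrays. Top2a, the form of dividing cells, fell by 0.66 ± 0.11 from a median of 7.44 to 6.85, and its groups did not overlap. Of 18 genes for topoisomerases and the repair of their DNA adducts, these were the calls made, with 5 falls when arrays were centred. Gapdh, a glycolytic enzyme often used as a reference, lay at 12.19 to 12.31 in vehicle and 12.34 to 12.45 with topotecan, a difference of 0.14 (adjusted p = 0.0883).

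In all, 9675 of 41345 probe sets passed the test (23.4%), 6113 of them higher (14.8%) and 3562 lower (8.62%). Counted by gene, 2435 fell (11.0%) and 3238 rose (14.6%), and all 6 treated arrays lay on one side of all 6 vehicle arrays for 1535 genes that were lower (6.92%) and 1439 that were higher (6.49%). In bulk RNA, fewer cells of a type and less RNA per cell cannot be told apart. Large changes were mostly falls: 384 genes fell at least 2-fold (1.73%) and 90 rose at least 2-fold (0.406%). The balance of small changes depends on how arrays are scaled. Rises made up 57.1% of called genes with the deposited values, 47.6% after quantile normalization (2593 higher, 2853 lower) and 32.3% after centring each array on its median (1785 higher, 3736 lower), while the median change of all genes was 0.04, 0.00 and -0.05.

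The share of genes that fell was higher in bins of longer genes. Genes over 1000 kb, 55 in number, had a median change of -1.71, and 94.5% of them fell while 1.82% rose. Between 500 and 1000 kb the median was -1.10 and 84.3% fell. Between 200 and 500 kb it was -0.53 and 69.5% fell, and between 100 and 200 kb it was -0.14 with 36.0% lower and 6.61% higher. From 10 to 20 kb the median was 0.06, with 4.18% lower and 14.7% higher. At the short end, genes up to 2 kb had a median of 0.18, and 26.1% of them rose. Of the 2435 falling genes 1196 spanned over 100 kb (49.1%), and 10.5% of all genes did. Falling genes had a median span of 97.2 kb and rising genes of 10.6 kb. Of the 384 genes that fell at least 2-fold, 289 spanned over 100 kb, and of the 90 that rose as much, 1 did.

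**Figure D1:**
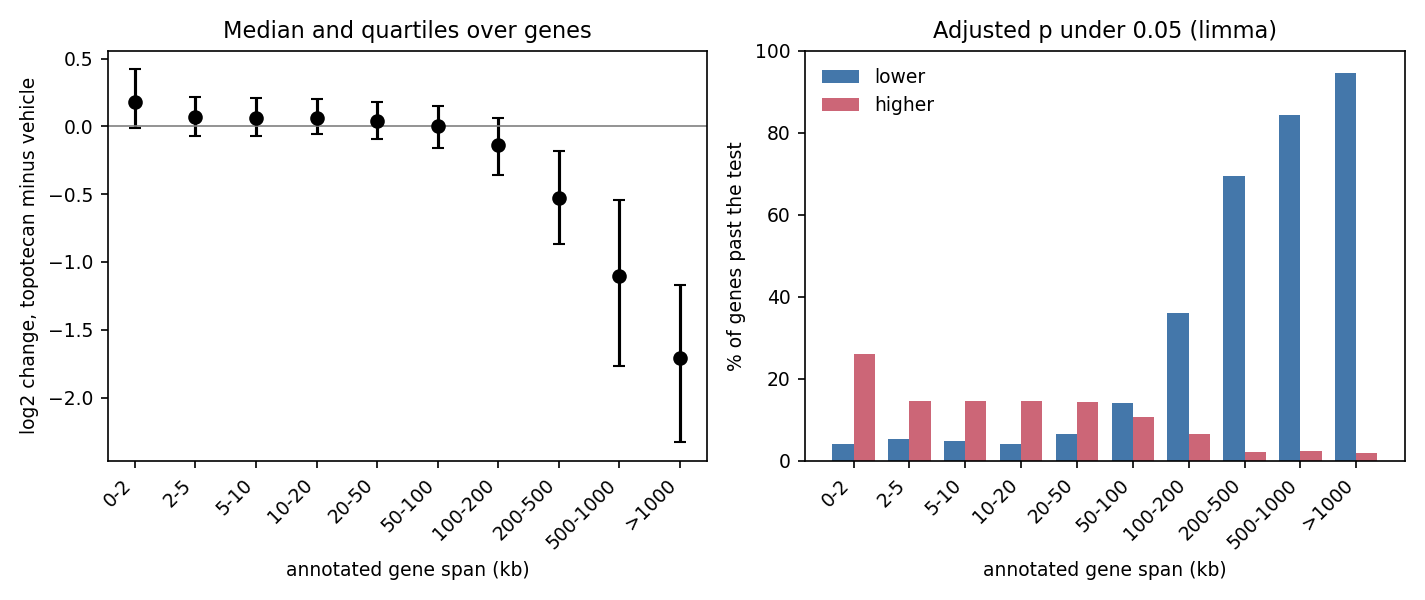
Change with topotecan by annotated gene span, in kb. The left panel gives the median log2 change of the genes in each bin (points) and their quartiles (bars), and the right panel the percentage of genes past the limma test in each direction, which reaches 94.5% lower over 1000 kb and 26.1% higher up to 2 kb.

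The same pattern was summarised in 1 value per array, the mean log2 level of the 2337 genes over 100 kb minus that of the 19657 other genes. This score was 1.289 ± 0.045 in vehicle and 0.830 ± 0.042 with topotecan (SD, n = 6 and 6), a difference of -0.459. The lowest vehicle array, vehicle 4, had 1.216 and the highest treated array 0.885, so the groups were well apart. An exact 2-sided permutation test over all 924 splits of the arrays gave p = 0.00216, the smallest value it can give.

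Nkain2, which encodes a membrane protein that binds a sodium pump subunit and spans 1210 kb, had the largest fall with the probe sets used here. Its lowest, median and highest levels were 10.02, 10.33 and 10.37 in vehicle and 6.57, 7.05 and 7.14 with topotecan, a 9.81-fold fall (adjusted p = 6.69e-10). Csmd1, a complement-regulating membrane protein spanning 1640 kb, went from 8.36, 8.53 and 8.74 to 5.22, 5.37 and 5.65, with its lowest treated array under the dim limit. Every treated array of both genes lay far under every vehicle array. The genes given as the largest falls and rises, and up to 4 members of each list, were chosen among called genes whose groups do not overlap. For these genes, here and below, separate groups follow from that choice and are not a further finding. Cdh13, a cadherin held in the membrane by a lipid anchor, fell by 2.90 ± 0.10, from a median of 9.80 to 6.81. Nrg3, a neuregulin ligand, fell by 2.85 ± 0.13 and Erbb4, its receptor, by 2.74 ± 0.14, and the ligand's vehicle 4 array (8.83) was its lowest in that group. The other members of that ligand and receptor family did not follow. Nrg1, another very long gene at 1080 kb, had a change of -0.07, and Nrg2, Nrg4, Egfr, Erbb2 and Erbb3 lay between -0.37 and 0.30, none of them called.

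The remaining genes among the 15 with the largest falls were of several kinds. Dpp10 is an auxiliary subunit of A-type potassium channels, Kcnma1 the pore of the large-conductance calcium-activated potassium channel and Cacna2d3 an auxiliary subunit of calcium channels. They fell by 2.74 ± 0.19, 2.71 ± 0.13 and 2.57 ± 0.13. Mdga2, a surface protein that binds neuroligins, fell by 2.66 ± 0.11, and Negr1, an adhesion protein of the IgLON family, by 2.58 ± 0.12. Rbfox1, a neuronal splicing regulator spanning 1530 kb, went from a median of 10.31 to 7.66. The other 4, Ipw, Aqp4, Gfap and Sst, span 59.7, 21.6, 9.87 and 1.77 kb and are described further on.

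**Figure D2:**
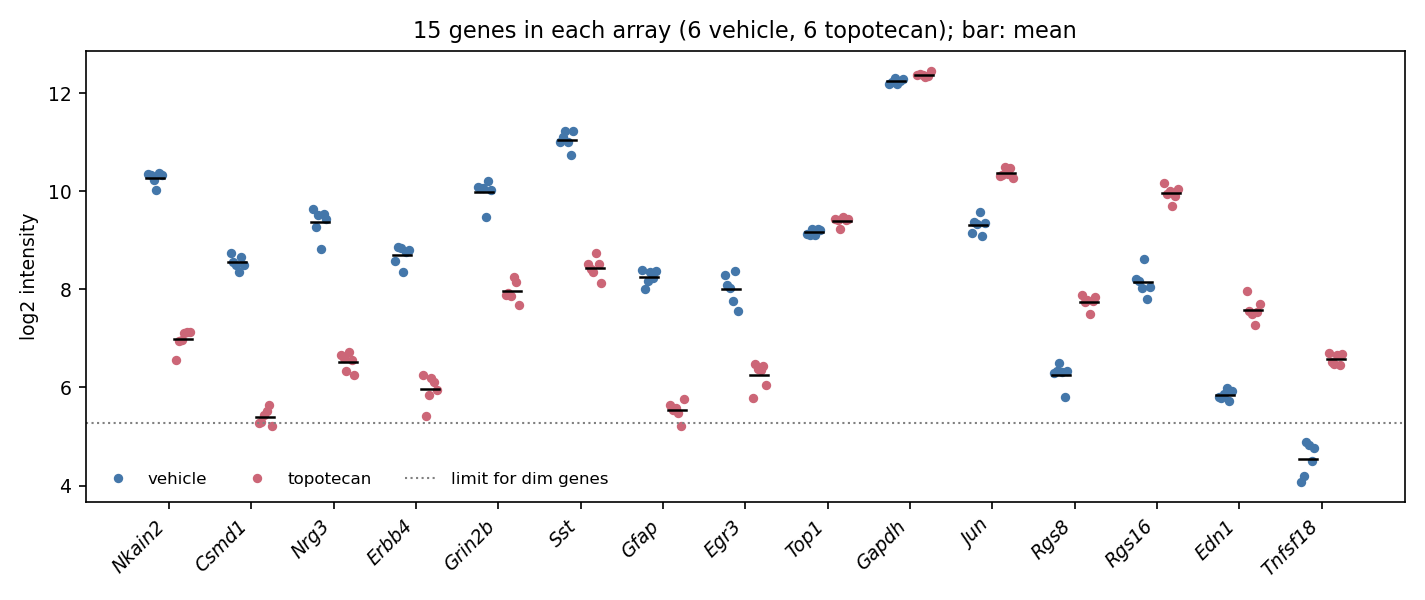
Log2 intensity of 15 genes in each of the 6 vehicle and 6 topotecan arrays, with the group mean as a bar and the limit for dim genes as a dotted line. Nkain2 lies at 10.02 to 10.37 in vehicle and 6.57 to 7.14 with topotecan, Rgs16 at 7.80 to 8.62 and 9.70 to 10.18, and the groups of Top1 touch.

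The gene lists were chosen with earlier results of these data known, so their counts are descriptive. Of the 1336 distinct genes measured in them 33.8% fell and 9.81% rose, where 11.0% and 14.6% of all genes did. Among cell adhesion molecules of the synapse, members over 100 kb made up most of the falls. Among these the longest member of a list did not always fall furthest, as Cntnap2 and Cntn5 show below. A relation between span and size of fall within the lists was not tested. Of 7 teneurins and latrophilins, adhesion proteins and receptors that pair across the synaptic cleft, 6 fell and 0 rose, with a median of -1.90 where all genes had 0.04. Tenm2 went from a median of 9.16 to 6.76 and Adgrl3 from 9.53 to 7.18, with no overlap, as their choice required. Adgrl1, at 42 kb the shortest of them, had a change of -0.15. Of 11 IgLON proteins and glypicans, which are lipid-anchored surface proteins, 8 fell and 1 rose (median -1.99). Lsamp, which spans 2200 kb, went from 8.23, 8.85 and 8.99 in vehicle to 6.19, 6.36 and 6.86, Opcml fell by 2.31 ± 0.13 and Gpc6 by 2.21 ± 0.11. Gpc2, at 6 kb, was the member that rose, by 0.62.

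Contactins and their Caspr partners, which organise axonal and synaptic contacts, gave 10 falls and 0 rises of 13. Cntn5 fell by 2.39 ± 0.15, Cntnap5a by 1.94 ± 0.18 and Cntn1 by 1.29 ± 0.13. Cntnap2, the longest of them at 2240 kb, had 8.33, 9.40 and 9.62 in vehicle and 6.89, 7.38 and 7.57 with topotecan, so its spread between arrays was wide but the groups did not overlap. Cntn2, spanning 34 kb, had a change of -0.01. Of the neurexins and neuroligins, the presynaptic and postsynaptic sides of an adhesion pair, Nrxn3 fell from a median of 10.14 to 7.67 and Nlgn1 from 9.04 to 6.97. Nrxn2 fell by 0.46 with overlapping groups, and Nlgn2 and Nlgn3, under 25 kb each, had changes of -0.04 and -0.12.

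Of 24 cadherins 17 fell and 1 rose (median -0.58). Cdh12 was the most variable, with 6.31 to 8.15 in vehicle and 4.93 to 5.55 with topotecan. Pcdh9 fell by 2.00 ± 0.16 and Pcdh11x by 1.49 ± 0.15, both delta protocadherins, while Pcdh18, at 14 kb, rose by 0.59. Leucine-rich-repeat organizers of synapses moved less. Of 25, 7 fell (11 with centred arrays) and 2 rose (median -0.18), and the 7 over 100 kb had a median of -0.92 against -0.11 for the 18 shorter ones. Lingo2, Lrfn5 and Lrrc4c fell by 1.95 ± 0.17, 1.44 ± 0.13 and 1.28 ± 0.16. Lrrtm4 was an exception among the long ones at 791 kb, with a change of -0.17 that was not called.

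The axon guidance list held 43 measured ligands and receptors, of which 29 fell and 3 rose (median -0.59). Receptors fell furthest. Dcc, the netrin receptor, went from 7.72, 8.38 and 8.79 in vehicle to 5.57, 5.94 and 6.24, Epha6, an ephrin receptor, fell by 2.32 ± 0.17 and Unc5d, another netrin receptor, by 2.20 ± 0.11. Plxna4, a semaphorin receptor, fell by 1.88 ± 0.11. Plxnd1, also a semaphorin receptor, fell by 1.37 although it spans 40.5 kb. Among the ligands Slit3 fell by 1.67, and Sema3d, a secreted semaphorin spanning 206 kb, rose by 0.75 ± 0.09 from 4.87 to 5.27 in vehicle to 5.57 to 5.91. Efnb1 and Efnb2, short genes for transmembrane ephrins, rose by 0.49 and 0.19.

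Ionotropic glutamate receptors, the channels of fast excitation, gave 14 falls and 1 rise among 18 members (median -0.98). The NMDA receptor subunit Grin2b went from 9.48, 10.06 and 10.22 in vehicle to 7.68, 7.91 and 8.26, a 4.08-fold fall. Grin2a, another NMDA receptor subunit, reached 4.81, 4.98 and 5.68 from 6.96, 7.67 and 7.86, so its treated mean was dim and the size of its fall is limited by background. Grid1, of the delta subfamily, fell by 2.17 ± 0.13 and the kainate receptor subunit Grik2 by 1.93 ± 0.08. The AMPA receptor subunits Gria1, Gria4, Gria3 and Gria2 fell by 1.80, 0.99, 0.96 and 0.54. All 13 members over 100 kb fell. Of the 5 shorter ones Neto2 fell by 0.45, Grin2d, which spans 39 kb, rose by 0.32, and the rest were not called.

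Of 6 metabotropic glutamate receptors 5 fell and 0 rose. Grm5 had the largest change, from a median of 9.66 to 7.25, Grm3 fell by 1.30 ± 0.17 and Grm8 by 0.55 ± 0.09. Grm2 fell by 1.18 ± 0.20 although it spans 11.6 kb. Grm7 had no change in the probe set used here, which is taken up below. Among 11 GABA receptor genes 7 fell and 1 rose. Gabrg3 and Gabrb1, subunits of the chloride channel, fell by 1.77 ± 0.13 and 1.71 ± 0.11, and Gabbr2, a subunit of the G-protein-coupled receptor, by 1.54 ± 0.12. Gabbr1, its partner spanning 28 kb, had a change of -0.02. Of 36 cholinergic, monoamine and peptide receptors 7 fell (12 without vehicle 4) and 4 rose, where 11.0% of all genes fell and 14.6% rose. Chrm3, a muscarinic receptor, fell by 0.98 ± 0.12 and Crhr1, a receptor for corticotropin-releasing hormone, by 0.90 ± 0.19, while Trhr, which binds a hypothalamic releasing hormone, rose from 5.51 to 5.87 to 6.54 to 6.78 and Htr2a, a serotonin receptor, by 0.68 ± 0.10.

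Ion channels showed the same division by span, with an addition. Of 20 voltage-gated calcium channel genes 11 fell and 1 rose, and the 11 all spanned over 100 kb. Cacna2d1 fell by 1.97 ± 0.10, Cacna1c, a pore of the L type, by 1.57 ± 0.09 and Cacna1e, the pore of the R type, by 1.27 ± 0.13. Of 39 potassium and HCN channel genes 30 fell and 1 rose. Kcnip4, a calcium-binding subunit, fell by 2.44 ± 0.12, Kcnq5, an M-current pore, by 2.04 ± 0.14 and Kcnd2, an A-type pore, by 1.99 ± 0.13. Here shorter members fell too: 12 of the 20 up to 100 kb did (median -0.48), Kcnj10, an inward rectifier of glia spanning 32.9 kb, by 1.95 ± 0.12. Of 8 sodium channel genes 3 fell, led by Scn8a with 1.27 ± 0.15, and Scn9a rose by 0.30 with overlapping groups.

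In the presynaptic terminal, scaffolds of the active zone gave 18 falls and 0 rises among 25 (median -0.65). Erc2 had 8.72, 9.17 and 9.23 in vehicle and 6.71, 6.91 and 7.13 with topotecan, and Cadps, which primes dense-core vesicles, fell by 2.05 ± 0.13. Ppfia2, a liprin, fell by 1.78 ± 0.12 and Rims1 by 1.56 ± 0.11. Lin7b, spanning 2.67 kb, fell by 1.21. Vesicle proteins and SNAREs gave 18 falls and 3 rises among 44 (median -0.30). Syt1, the calcium sensor of fast release, which spans 513 kb, went from 11.06, 11.44 and 11.53 to 8.83, 9.45 and 9.65. Stxbp5l, Sv2b and Syt16 fell by 1.42 ± 0.16, 1.28 ± 0.21 and 1.04 ± 0.13. The short vesicle genes Vamp2, Syp and Sv2a had changes of -0.01, -0.24 and -0.15, none of them called.

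On the postsynaptic side 26 of 37 scaffold genes fell and 0 rose (median -0.60). Ptprd, a receptor phosphatase, Il1rapl1, its adhesion partner across the cleft, Cnksr2 and Dlgap1, both scaffolds, fell by 2.18 ± 0.10, 2.07 ± 0.12, 2.06 ± 0.16 and 2.03 ± 0.10. Members up to 100 kb fell in 7 of 15 cases with a median of -0.27. Shank1, at 51 kb, fell by 0.82 and Dlg4, which encodes PSD-95 and spans 28 kb, had a change of -0.21 that was not called. Transporters of transmitters and ions gave 20 falls and 1 rise among 30 (median -0.56), led by Slc24a3, a sodium, potassium and calcium exchanger, with 2.02 ± 0.10, and Slc8a1, a sodium and calcium exchanger, with 1.41 ± 0.11.

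The size of the fall varied widely among the longest genes. A list of 53 very long genes outside the receptor families, chosen with earlier results known, had 51 falls and 0 rises (median -1.41). The 51 ran from Nkain2 at -3.29 to Pde4d, a phosphodiesterase spanning 1300 kb, at -0.31. The exceptions were Pde4b, another phosphodiesterase spanning 520 kb, with 0.00, and Ctnna3, a catenin spanning 1570 kb that was dim in both groups, with -0.23. Dmd, the longest of the list at 2390 kb, fell by 0.60, and Fhit, an enzyme gene at 1610 kb, by 0.61 to a dim level. Csmd1, at 1640 kb, fell by 3.16.

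**Figure D3:**
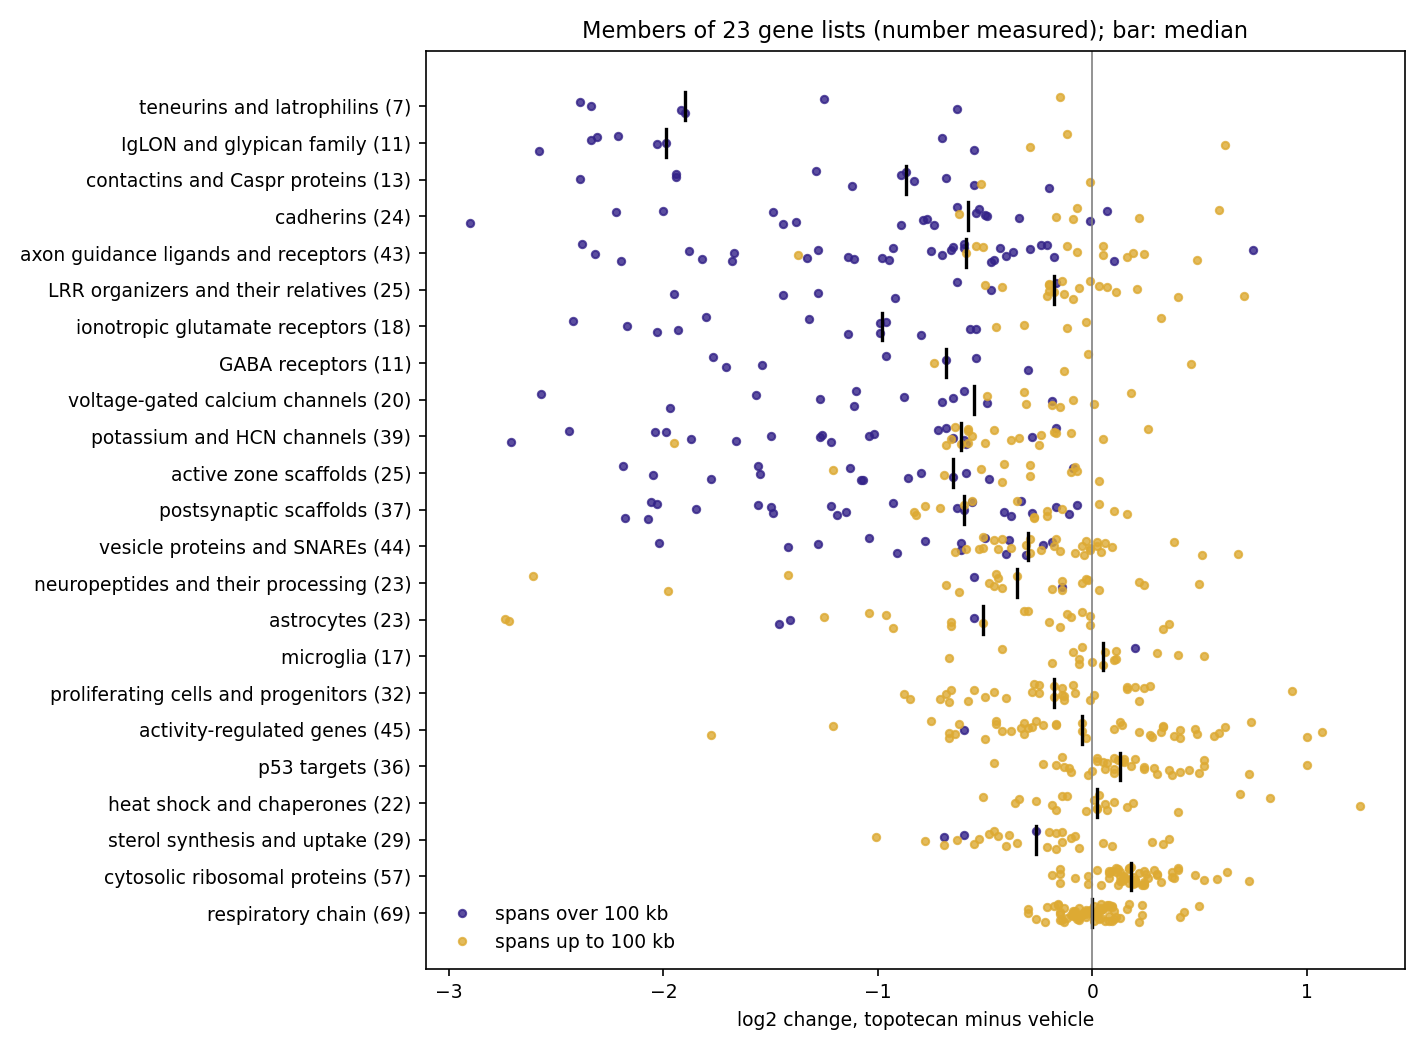
Log2 change of each measured member of 23 gene lists, with the number measured in brackets, members over 100 kb in dark blue and shorter ones in yellow, and the list median as a bar. Members over 100 kb lie mostly left of 0 in the synaptic lists, with list medians from -1.99 for the IgLON and glypican family to 0.18 for cytosolic ribosomal proteins.

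Regulators of transcription and splicing were mixed. Of 29 neuronal splicing regulators 12 fell and 2 rose, with a median of -0.50 over 100 kb and 0.04 for the rest. Rbfox3, whose protein is the neuronal marker NeuN, fell by 1.63 ± 0.19, Rbms3 by 1.14 ± 0.11 and Celf2 by 1.11 ± 0.09, while Ptbp1, a repressor of neuronal splicing spanning 10 kb, rose by 0.47 with overlapping groups. Of 30 chromatin genes linked to autism 13 fell and 2 rose. Myt1l, a neuronal transcription factor, went from 7.99, 8.76 and 8.86 to 6.49, 6.92 and 7.19, Arid1b fell by 0.98 ± 0.07 and Auts2 by 0.93 ± 0.09, and the 11 members up to 100 kb had a median of -0.03. Of 41 genes for RNA polymerase II and elongation factors 7 rose and 3 fell (3 and 5 with centred arrays). Among all genes 14.6% rose and 11.0% fell, so the share of rises in this list was near the background. Polr2a, the catalytic subunit, went from 8.98 to 9.33 in vehicle to 9.53 to 9.63 with topotecan, a rise of 0.50 ± 0.07. Hexim1, an inhibitor of the elongation kinase P-TEFb, rose by 0.36 and Brd2, a reader of acetylated histones, by 0.28. Aff3, a long member of the elongation factor group, fell by 1.31 ± 0.09.

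MicroRNA genes held a block of falls. Their annotated spans are those of hairpins, which can lie within longer transcripts, as Mir341 and Mir1188 do in Rian. Hairpins within the same transcript are not independent counts. These genes give hairpin transcripts from which mature miRNAs are cut, and the arrays do not measure the mature forms apart from their precursors and hosts. Of 478 measured, 31 rose and 76 fell, and 38 of the falls came from 43 genes that lie between Meg3 and Dio3, an imprinted region expressed from the maternal chromosome. There 0 rose, the median was -1.21, and for 32 the groups did not overlap. The other 435 miRNA genes had 31 rises and 38 falls with a median of 0.00. The region was looked at as a unit after the values were seen. Its 31 bright members had a median of -1.40 with 28 falls, and the treated mean was dim for 20 of the 43. Without vehicle 4 the median was -1.26 with 39 falls.

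The mature sequences of members with large falls, and of 3 that lie outside the region, follow so that the products of hairpins that fell can be compared. They are RefSeq's for GRCm38.p6, 5′ to 3′, with the seed, bases 2 to 8, in capitals.
miR-377-3p: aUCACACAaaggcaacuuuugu
miR-300-3p: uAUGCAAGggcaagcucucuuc
miR-381-3p: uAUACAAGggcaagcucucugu
miR-382-5p: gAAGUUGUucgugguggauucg
miR-376b-3p: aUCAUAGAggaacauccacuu
miR-376a-3p: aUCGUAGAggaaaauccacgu
miR-379-5p: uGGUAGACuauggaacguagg
miR-1193-5p: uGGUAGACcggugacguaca
miR-411-5p: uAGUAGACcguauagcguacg
miR-379-3p: uAUGUAACaugguccacuaacu
miR-411-3p: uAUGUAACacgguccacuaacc
miR-453: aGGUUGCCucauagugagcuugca
miR-496a-5p: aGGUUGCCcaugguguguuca
miR-128-3p: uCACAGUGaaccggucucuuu
miR-218-5p: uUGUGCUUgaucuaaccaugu
Seeds were shared by miR-379-5p and miR-1193-5p (GGUAGAC), by miR-379-3p and miR-411-3p (AUGUAAC) and by miR-453 and miR-496a-5p (GGUUGCC). The 3p products of Mir300 and Mir381 and those of Mir376a and Mir376b are alike along their length and have different seeds.

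Mir377 had 6.17, 6.70 and 6.95 as its lowest, median and highest level in vehicle and 3.88, 4.45 and 4.84 with topotecan. Mir300 went from 7.07, 7.54 and 7.71 to 4.49, 5.44 and 5.74, and Mir382 from 6.79, 7.46 and 7.79 to 4.88, 5.32 and 5.78. No treated array reached a vehicle array for these genes, as their choice required, and the treated mean of Mir377 was dim. Mir376b fell by 2.07 ± 0.18, Mir380 by 1.96 ± 0.17 and Mir453 by 1.90 ± 0.10. Mir379 and Mir1193, which share a seed, fell by 1.76 ± 0.23 and 1.57 ± 0.18. Mir376a, whose mature sequence resembles that of Mir376b, fell by 1.01 ± 0.12, and Mir381, which resembles Mir300, by 1.11 ± 0.15. Background limits these values, since the treated means of Mir376a, Mir376b, Mir379, Mir380 and Mir381 were dim. The members that were not called were Mir673, Mir665, Mir299a, Mir666 and Mir376c, with changes from -0.01 to -0.47. Mir673 and Mir665 are among the first 5 from the Meg3 end.

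The long RNAs of the region moved less. Rian, a non-coding RNA there, fell by 0.90 ± 0.08 (adjusted p = 4.92e-06) from a mean of 10.46 to 9.57. Meg3, the non-coding RNA at one end, had a change of -0.22 ± 0.14 (adjusted p = 0.262). Dlk1, a paternally expressed Notch ligand beyond it, fell by 0.70 ± 0.12, and Dio3, a thyroid hormone deiodinase at the other end, was dim in both groups at -0.16.

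**Figure D4:**
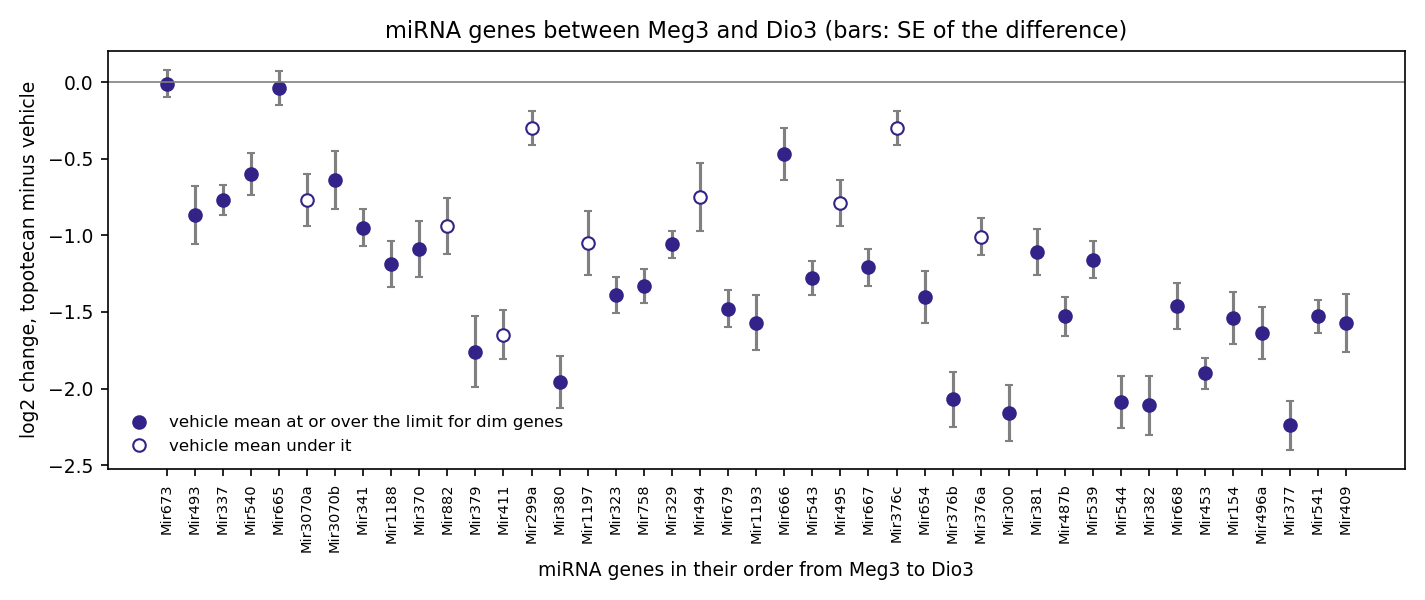
Log2 change of the 43 miRNA genes between Meg3 and Dio3, in their order along the chromosome and not to scale, with the standard error as bars and open points for genes whose vehicle mean is dim. All 43 points lie under 0, with Mir673 (-0.01) and Mir665 (-0.04) the closest to it and Mir377 the lowest at -2.24.

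Outside the region, miRNA genes inside long host genes mostly did not move with their hosts. The 58 hosts over 100 kb had 42 falls, 1 rise and a median of -0.52, while the 75 miRNA genes in them had 12 falls, 3 rises and a median of -0.07, with 51 of them dim. Mir128-2 and Mir128-1 yield the same mature miR-128-3p, abundant in neurons. Mir128-2 went from 5.62, 6.14 and 6.96 to 3.24, 3.55 and 4.58, its host Arpp21 by -1.49, and Mir128-1 fell by 0.98 ± 0.15, its host R3hdm1 by 0.41. Mir876, in Lingo2, fell by 2.02 ± 0.22 to a dim level and Mir218-1, in Slit2, by 0.85 ± 0.09. Mir218-2, which gives the same miR-218-5p from within Slit3, was dim in both groups and had a change of -0.39 (adjusted p = 0.0901) where its host fell by 1.67. Mir691, in Robo2, was bright at a mean of 6.42 and had a change of -0.02 where its host fell by 1.82.

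Some of the largest falls lay in short genes, and several are markers of astrocytes. Gfap, the intermediate filament of astrocytes, spans 9.87 kb and went from 8.01, 8.30 and 8.39 to 5.22, 5.56 and 5.76. Aqp4, their water channel, went from 8.32, 8.66 and 8.80 to 5.64, 5.85 and 6.09. For both genes the groups were fully apart, as their choice required. Of 23 astrocyte markers 13 fell and 2 rose (median -0.51, and -0.31 for the 20 up to 100 kb), with Slc4a4, a bicarbonate transporter, at -1.46 and Slc1a2, a glutamate transporter, at -1.41. Gja1, S100b and Fabp7 had changes of -0.12, -0.15 and -0.10, and Sox9 and Clu rose by 0.33 and 0.36 with overlapping groups. The mean level over the list was 8.16 to 8.33 in vehicle and 7.51 to 7.65 with topotecan. Slc38a3, a glutamine transporter of glia and other cells, fell by 2.33 ± 0.07, and Glycam1, a mucin-like secreted protein, by 2.56 ± 0.12.

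Neuropeptide genes are short and several fell strongly. Sst, which encodes somatostatin and spans 1.77 kb, had 10.75, 11.06 and 11.24 in vehicle and 8.14, 8.46 and 8.74 with topotecan, a 6.10-fold fall. Npy, neuropeptide Y, went from 8.97, 9.38 and 9.61 to 6.91, 7.43 and 7.62. Penk, proenkephalin, fell by 1.42 ± 0.25 with a wide spread, and Vgf, a secreted neuronal protein, by 0.62 ± 0.13. Of 23 neuropeptides and processing enzymes 7 fell and 1 rose (median -0.35), while Crh, Tac2 and Chgb had changes of -0.02, -0.14 and -0.05. Among 22 markers of inhibitory interneurons 9 fell and 1 rose. Reln, secreted by a subset of them and spanning 460 kb, fell by 2.50 ± 0.12. The interneuron transcription factors Lhx6, Dlx2 and Dlx5 were not called, with -0.10, 0.17 and 0.21, and the transmitter enzymes Gad1 and Gad2 had -0.30 (not called) and -0.49 (called).

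Markers of neurons in general and of excitatory neurons fell in larger shares than those of interneurons, but the lists differ in span. Members over 100 kb were 14 of 33 excitatory, 7 of 23 pan-neuronal and 3 of 22 interneuron markers. Among members up to 100 kb, 7 of 19, 6 of 16 and 6 of 19 fell, with medians of -0.21, -0.23 and -0.25. The difference between the lists was not tested. Of 33 markers of excitatory cortical neurons 18 fell and 2 rose (median -0.44), including Unc5d (-2.20), named above, Rorb (-1.15), Foxp2 (-1.14) and Mef2c (-1.06), and Tbr1 rose by 0.46. Of 23 pan-neuronal markers 12 fell and 1 rose: Ncam1, an adhesion protein, by -1.13, and the neuronal non-coding RNA Snhg11, at 10.8 kb, by -1.41 from a median of 9.90 to 8.40, where vehicle 4 was the lowest of its group at 9.14. Tubb3 fell by 0.33 and Nefm and Thy1 were not called. Proliferating cell and progenitor markers gave 10 falls (16 with centred arrays) and 2 rises of 32, with Ube2c at -0.88 and Plk1 at -0.71, while the progenitor filament gene Nes rose by 0.93 ± 0.12. The mean level of that list was 7.15 to 7.69 in vehicle and 6.92 to 7.26 with topotecan, so the groups overlapped. Markers of oligodendrocytes (2 lower and 1 higher of 17, 11 dim, with 3 higher without vehicle 4 and 4 lower and 0 higher with centred arrays), microglia (2 and 2 of 17), endothelium (2 and 0 of 13, 9 dim) and fibroblasts and mural cells (4, or 7 with centred arrays, and 2 of 21) were mostly not called. For reference, 11.0% of all genes fell and 14.6% rose. The part of these cell types in the falls of short genes was not tested.

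The 15 largest rises were of mixed kinds. Tnfsf18, a cytokine of the TNF family, rose from 4.08, 4.63 and 4.88, all dim, to 6.46, 6.59 and 6.70. Rgs16, which shortens G-protein signals, went from 7.80, 8.11 and 8.62 to 9.70, 9.97 and 10.18, and Edn1, the precursor of a vasoactive peptide, from 5.72, 5.84 and 5.98 to 7.28, 7.55 and 7.96. In each the groups were apart, as the choice of these genes required. Rgs8, another of the RGS family, rose 2.82-fold from a median of 6.32 to 7.78. Rnf122, a ubiquitin ligase, Lurap1l, F5, a coagulation factor, and Pla2g10os, a non-coding RNA, rose by 1.34 ± 0.11, 1.28 ± 0.08, 1.29 ± 0.14 and 1.28 ± 0.18. The rest were the small heat shock gene Hspb1 (1.25) and 6 genes that were dim in vehicle: the chemoreceptor genes Olfr293 (1.45), Olfr1002 (1.33), Olfr1140 (1.28), Olfr229 (1.26) and Vmn1r238 (1.25), and Sly (1.25), a gene of the testis. Of 19 RGS genes 3 rose and 5 fell, where 14.6% of all genes rose and 11.0% fell. The share of rises was near the background, and the falls were led by the long members Rgs7 (-1.78) and Rgs6 (-1.41).

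Rises of long genes were few and smaller. Abcg2, an efflux transporter of which topotecan is a known substrate, spans 108 kb and rose by 1.03 ± 0.14, from 5.26, 5.39 and 5.78 in vehicle to 6.15, 6.46 and 6.90. Myof, a membrane repair protein, Pld1, a phospholipase, Dgkk, a lipid kinase, and the non-coding RNA Morrbid rose by 0.96 ± 0.14, 0.83 ± 0.12, 0.81 ± 0.13 and 0.74 ± 0.09. In all, 113 genes over 100 kb rose, of 2337.

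Genes that respond to neuronal activity moved in both directions. Of 45, 14 fell and 13 rose (median -0.05). Egr3, a zinc-finger factor, went from 7.56, 8.06 and 8.38 to 5.79, 6.36 and 6.47, and Npas4, a factor specific to activity in neurons, fell by 1.21 ± 0.18. Arc, a synaptic protein, fell by 0.75, and Nptx1, a secreted pentraxin, by 0.67. Against these, Jun, a stress-responsive transcription factor, rose from 9.09, 9.34 and 9.57 to 10.28, 10.35 and 10.50, and Dusp1, a phosphatase of the MAP kinases, by 0.74. Gadd45b, which responds to stress and to activity, rose by 1.00 ± 0.13. Fos was not called, with -0.26 ± 0.13 (adjusted p = 0.181), and neither were Egr1 (-0.05) and Junb (-0.17). Edn1, Lif, a cytokine (0.70), and Tgfb1 (0.39) rose among 42 neurotrophin and growth factor genes (7 rises without vehicle 4), of which 15 fell, led by Sorcs3, a sorting receptor (-1.56), and the neurotrophin receptors Ntrk3 (-1.29) and Ntrk2 (-1.20).

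Targets of p53, the factor activated by DNA breaks, gave 8 rises and 1 fall of 36 with a median of 0.13, and 14.6% of all genes rose. The rises numbered 13 without vehicle 4, and the median was 0.03 when arrays were centred. Cdkn1a, the cell cycle inhibitor p21, went from 11.45, 11.56 and 11.89 to 11.97, 12.04 and 12.15, a rise of 0.45 ± 0.08. Perp, a membrane protein, rose by 0.73 ± 0.12 and Ccnd1, a cyclin, by 0.52 ± 0.08. Mdm2, Zmat3 and Ccng1, further targets, had changes of 0.05, 0.06 and 0.15 that were not called. Of 26 BCL2 family and caspase genes 5 rose (8 without vehicle 4, 2 with centred arrays) and 0 fell, among them Hrk, a death-promoting member, by 0.60 ± 0.09 and Bcl2l11 by 0.36 ± 0.09, whose call was lost with centred arrays.

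Stress pathways showed single genes that moved and not whole lists. For reference, 14.6% of all genes rose and 11.0% fell. Among 22 heat shock genes 4 rose and 2 fell (8 with centred arrays). The small heat shock proteins Hspb1 and Cryab rose, by 1.25 ± 0.15 from a median of 6.75 to 7.95 and by 0.83 ± 0.11, and Bag3, their co-chaperone, by 0.69, while Hspa1a and Hsp90aa1 had -0.03 and 0.01. Of 28 antioxidant genes 5 rose (2 with centred arrays) and 4 fell. Gpx1, a glutathione peroxidase, rose by 0.88 ± 0.10, Slc7a11, the cystine transporter spanning 134 kb, fell by 1.47 ± 0.22 and Hmox1 and Nqo1 were not called. In the integrated stress and unfolded protein response 3 rose and 4 fell of 37 (8 falls without vehicle 4 and 15 with centred arrays), and the central factor Atf4 and the chaperone Hspa5 had changes of -0.07 and 0.11, neither called. Of 38 interferon-stimulated and inflammatory genes 3 rose and 2 fell (5 with centred arrays), and the falls were in the chemokines Cxcl10 (-0.79 ± 0.14) and Ccl5 (-0.66 ± 0.12).

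In metabolism, 12 of 29 genes of sterol synthesis and uptake fell and 3 rose (median -0.26), and 10 of the falls were among the 26 genes up to 100 kb. Nsdhl, an enzyme of late cholesterol synthesis, went from 9.06, 9.49 and 9.98 to 8.34, 8.51 and 8.76 and Hmgcs1, an enzyme of the mevalonate pathway, fell by 0.69 ± 0.12. Of 31 glycolysis and hypoxia genes 8 fell and 2 rose, led by Aldoc, an aldolase also counted as an astrocyte marker, at -0.96. Cytosolic ribosomal protein genes gave 25 rises and 0 falls of 57 with a median of 0.18. Rps18 and Rps12 rose by 0.73 ± 0.12 and 0.58 ± 0.08. The rises numbered 22 after quantile normalization (median 0.16) and 9 with centred arrays (median 0.09). Genes of this family share sequence with many pseudogenes, so their probe sets may not be specific. Nuclear genes of the respiratory chain had 4 rises, 4 falls (12 with centred arrays) and a median of 0.00 among 69, and proteasome subunits 2 rises and 1 fall among 30 (1 and 4 with centred arrays).

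Short genes leaned upwards, whether dim or bright. Of 1105 olfactory receptor genes, which are short genes best known from the olfactory epithelium, 462 rose and 2 fell, with a median of 0.38 (0.31 after quantile normalization and 0.28 with centred arrays), and 894 of them were dim. Vomeronasal receptors gave 86 rises and 0 falls of 285 (median 0.28). Olfr293 had 3.03, 3.87 and 4.29 in vehicle and 4.64, 5.28 and 5.59 with topotecan, an example of a rise that stays near the dim limit. On a single array of another type at 1000 nM, Olfr293, Olfr1002, Olfr1140 and Olfr229 changed by -0.01, 0.27, 0.13 and -0.15. With irinotecan, a related drug taken up below, they changed by -0.16, 0.08, 0.03 and -0.01, at dim levels. None of their differences between the drugs passed the test. Among genes up to 2 kb, the 923 bright ones gave 350 rises and 71 falls (median 0.25) and the 2036 dim ones 421 rises and 51 falls (median 0.16). Over all 8872 dim genes 1178 rose and 198 fell (median 0.10), and over the 13308 bright ones 2060 rose and 2237 fell (median 0.00), so the share that rose was not larger among dim genes. Small nucleolar RNA genes gave 29 rises and 7 falls of 80, and probe sets that carry several gene names 696 rises and 70 falls of 1814. The part of background signal in these rises was not tested.

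Imprinted genes, which are expressed from one parental copy, gave 9 falls and 2 rises of 39. Ipw, a non-coding RNA of the Prader-Willi and Angelman region, went from 9.53, 10.08 and 10.12 to 6.15, 6.80 and 6.96, a 9.70-fold fall. Snhg14, the long host RNA of that region that runs antisense to Ube3a, fell by 1.22 ± 0.12. Usp29, a paternally expressed deubiquitinase gene spanning 237 kb, fell by 1.10 ± 0.14, and Peg10, derived from a retrotransposon, rose from 8.39, 8.51 and 8.75 to 9.38, 9.70 and 9.84. Ube3a itself, the ubiquitin ligase of Angelman syndrome, had 9.20, 9.30 and 9.43 in vehicle and 9.34, 9.53 and 9.66 with topotecan, a difference of 0.21 ± 0.08 (adjusted p = 0.0633) with overlapping groups. The other Ube3a probe set fell from 9.49, 10.11 and 10.27 to 5.03, 5.19 and 5.68, a change of -4.73 whose treated level is near the dim limit. It was the brighter of the pair in vehicle, with a mean of 10.04 against 9.31, so choosing probe sets by vehicle level turns Ube3a from a gene that was not called into one with a larger fall than Nkain2. The strand that each probe set reads is not given in the sources used here.

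Other genes also had probe sets that moved apart. Of 1082 genes with more than 1 probe set, 14 had probe sets past the test in opposite directions. Tenm4 had -1.92 in its brighter probe set and 0.40 in a dimmer one, Icam5, a neuronal adhesion protein, -1.64 and 0.44, and Jund 0.57 and -0.30. In 38 genes the probe sets differed by at least 1 on the log2 scale, 26 of them over 100 kb. Several genes given above by their brightest probe set are among these, and their other probe set moved little. The changes were -2.71 and 0.02 for Kcnma1, -2.03 and 0.15 for Grin2b and -2.39 and -0.31 for Adgrl3. They were -2.04 and -0.22 for Kcnq5 and -1.96 and 0.04 for Mir380. Grm7, the metabotropic receptor without a change above, had 7.35, 7.86 and 8.24 in vehicle in its other probe set and 4.93, 5.30 and 5.38 with topotecan, a fall of 2.63 ± 0.14. That probe set was the brighter in vehicle. The same holds for Tenm1, a teneurin, whose probe set brightest in vehicle went from 8.66, 9.15 and 9.53 to 5.39, 5.77 and 5.88, a fall of 3.40 ± 0.13. The Tenm1 probe set used here fell by 1.90 ± 0.20, and a dim one had -0.05. When each gene was represented by its brightest probe set in vehicle, 23 genes changed probe set, and 2438 genes fell and 3233 rose.

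Irinotecan, a related camptothecin that is a prodrug of the active compound SN-38, was tested on the same type of array. It was given at 10 µM to 3 arrays, with 2 vehicle arrays that it shares with a washout experiment, so the doses differ, and no array is shared with the topotecan comparison. The vehicle levels of some genes differed between the experiments, so each drug's change from its own vehicle was compared, for this 1 pair of compounds. Medians by span were close: -0.53 with topotecan and -0.48 with irinotecan for genes of 200 to 500 kb, and -1.25 and -1.30 over 500 kb. The difference of the effects passed limma's test for 265 of 41345 probe sets (0.641%), and for 128 genes, 62 lower (0.28%) and 66 higher (0.298%) with topotecan. That number rested on few arrays. It was 3 without irinotecan vehicle 1, 858 without vehicle 4 of topotecan, and from 90 to 402 without any other single array.

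Kcnj10 and Gfap, both genes of astrocytes, and Edn1 also passed without irinotecan vehicle 1. Kcnj10 fell by 1.95 with topotecan and had a change of 0.37 with irinotecan, a difference of -2.31 ± 0.23 (adjusted p = 0.000472). Its vehicle means were 9.07 and 8.24. Gfap changed by -2.72 and -0.65, a difference of -2.07 ± 0.23 (adjusted p = 0.0014), but its vehicle means were 8.26 and 6.69, the lower one in the irinotecan experiment. Edn1 changed by 1.75 and -0.04, a difference of 1.78 ± 0.17 (adjusted p = 0.000472), from vehicle means of 5.85 and 4.38, the latter dim. Without irinotecan vehicle 1 these differences were -2.16, -1.76 and 1.80 (adjusted p = 0.0201, 0.036 and 0.0165), and they were the 3 that passed. Sst changed by -2.61 and -1.10, Aqp4 by -2.74 and -1.24, Rgs16 by 1.82 and 0.37 and Tnfsf18 by 2.04 and 0.27. The vehicle means of these genes were also lower in the irinotecan experiment. They were 11.06 and 10.51 for Sst, 8.60 and 6.88 for Aqp4, 8.14 and 7.15 for Rgs16 and 4.54 and 3.21 for Tnfsf18. Aqp4 reached 5.64 with irinotecan, near the dim limit, and Tnfsf18 was dim with irinotecan too, at 3.48. Of 214 genes over 500 kb 9 were higher with topotecan and 0 lower, of 732 genes of 200 to 500 kb 4 and 0, and of 1391 genes of 100 to 200 kb 3 and 7. Il1rapl1 had -2.07 with topotecan and -3.44 with irinotecan, a difference of 1.37 (0.82 to 1.92 as 95% confidence interval, adjusted p = 0.0289). Kcnip4 had -2.44 and -3.42, a difference of 0.98 (0.56 to 1.41, adjusted p = 0.0385). Of the 15 genes with the largest falls with topotecan most were not past the test. Nkain2 had -3.29 and -3.69, a difference of 0.40 (0.02 to 0.77, adjusted p = 0.269). Csmd1 had -3.16 and -3.38, a difference of 0.23 (-0.15 to 0.60, adjusted p = 0.553), and Cdh13 -2.90 and -2.88, a difference of -0.02 (-0.42 to 0.37, adjusted p = 0.963). Erbb4 fell by 2.74 with topotecan and by 3.91 with irinotecan, a difference of 1.17 (0.64 to 1.71, adjusted p = 0.0463).

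**Figure D5:**
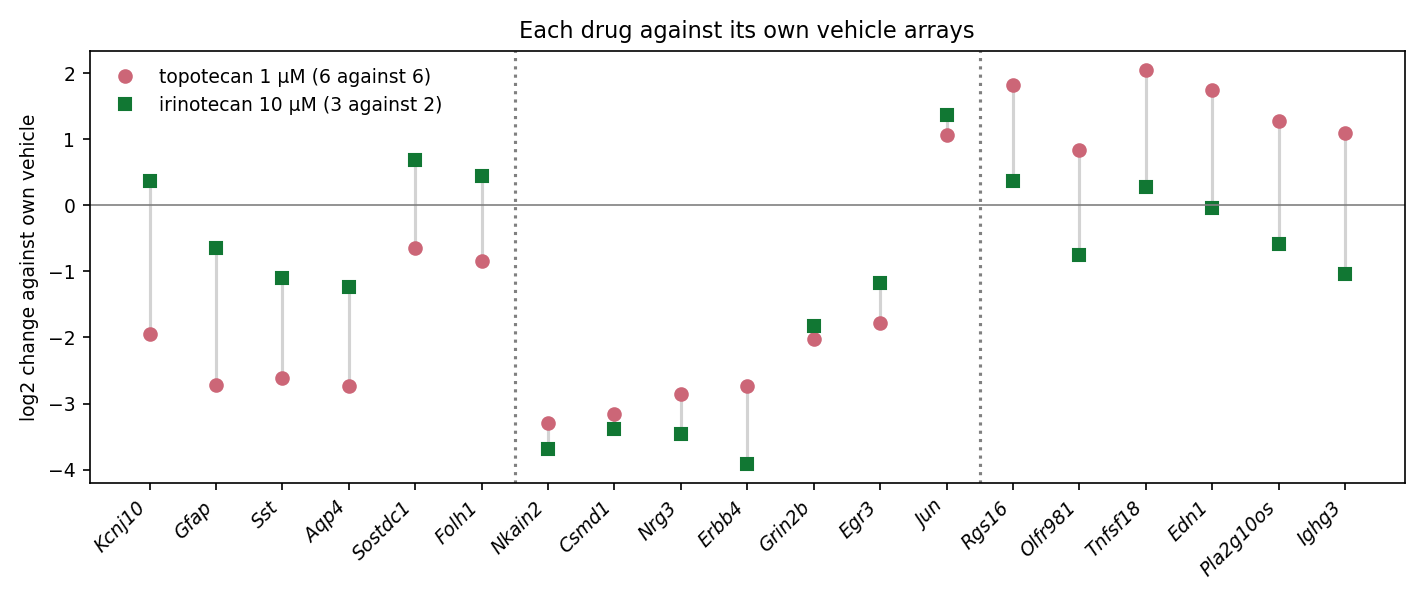
Log2 change from own vehicle with topotecan at 1 µM (circles, 6 against 6 arrays) and irinotecan at 10 µM (squares, 3 against 2 arrays). The 6 genes at the left and the 6 at the right have the largest differences each way, from Kcnj10 (-1.95 and 0.37) to Ighg3 (1.10 and -1.04), and the genes between were named in the topotecan comparison alone.

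Topotecan was also measured in the study on other array types, which are set beside these values without a test because doses, arrays and normalization differ. Nkain2 changed by -3.29 at 1 µM, by -2.79 on the single array at 1000 nM of the dose series and by -3.15 at 300 nM on 3′ arrays. Nrg3 changed by -2.85, -3.08 and -3.42. Other long genes had little change on the 3′ arrays, such as Erbb4 with -2.74, -3.19 and 0.00 and Cntnap2 with -1.94, -0.44 and 0.28, while Slc8a1 had -1.41, -1.18 and 0.50. Grin2a changed by -2.42, -1.59 and -0.23, and Ipw, which was not matched in the dose series, by -3.28 at 1 µM and -0.23 on the 3′ arrays. Sst changed by -2.61, -1.74 and 0.63, and Npy by -1.98, -1.39 and 0.31, so the falls of these peptide genes were not seen on the 3′ arrays. Gfap changed by -2.72, -1.46 and -2.34, but in the dose series its vehicle arrays alone lay from -1.93 to 0.97 around their mean. Some genes that fell at 1 µM did not fall in the dose series. Slc7a11 changed by -1.47, 0.98 and -1.68, and Penk by -1.42, 0.17 and 0.31. Jun changed by 1.07, 1.00 and 0.65, Rgs16 by 1.82, 1.40 and 0.32, and Edn1 by 1.75, 0.98 and 0.25.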

How the data were processed

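Total RNA extracted with Trizol was labelled with Ambion WT kits and hybridised to MoGene-2_1-st arrays, per the labels' protocols. The deposited values are linear intensities, and Affymetrix Expression Console and RMA are named for making them, per the submitters' processing notes. Tool versions, probe annotation release and genome build are not given in the sources used here. The log2 of each deposited intensity was taken, with no further normalization.

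The 6 topotecan and 6 vehicle arrays were fitted over 41345 probe sets with limma 3.58.1 (lmFit and eBayes, R 4.3.3), with Benjamini-Hochberg adjustment at 0.05. A fit over 17 arrays gave the difference between the effects of topotecan and irinotecan. The long-gene score was tested by an exact permutation test.

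Probe sets had 1 gene symbol (23521), several (1814) or none (16010) in GEO's platform annotation. Symbols, spans and miRNA order came from RefSeq for GRCm38.p6, with a span for 99.2% of genes, and 400 of 478 miRNA genes matched a hairpin. Among called genes whose groups do not overlap, the named genes were the 15 largest falls and 15 largest rises, the 8 largest falls under 20 kb, the 6 largest rises over 100 kb and up to 4 members of each list, with 11 set control genes and, for irinotecan, the 6 largest differences each way; other list members are given as examples. The members and the gene lists were chosen with earlier results of these data known.

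Alternatives were quantile normalization, centring, a filter on dim probe sets, fold limits, a replicate block, trend with robust prior, array weights, means over a gene's probe sets, a 200 kb span limit, leaving out each array and, chosen after seeing the data, the brightest probe set in vehicle.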

Additional observations from a re-analysis of the deposited data

Results flagged for a closer look

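Dixon's critical value for 6 arrays was applied to 386 groups, those of the named genes and those of a few measures of whole arrays. Of these, 45 groups, all of named genes, held an array far from the other 5, where chance flags about 1 in 20. In 34 of the 45 that array was vehicle 4. The groups share the same arrays, so the flags are not independent of each other.

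Vehicle 4 was the lowest vehicle array for 33 genes. Among channels, receptors and transporters its values were Kcnma1 9.20, Grin2a 6.96, Grin2b 9.48, Grik2 8.28, Grm5 9.08, Gabbr2 10.09, Gabra5 10.22, Cacna1c 8.67, Cacna1e 8.31, Slc1a2 7.08 and Slc8a1 9.08. Among adhesion and guidance genes they were Mdga2 9.16, Negr1 9.98, Cntn5 8.58, Cntn1 10.72, Tenm2 8.95, Lsamp 8.23 and Plxna4 9.30. In the synapse they were Syt1 11.06, Stxbp5l 7.36, Syt16 7.44, Erc2 8.72, Ppfia2 9.64 and Dlgap1 8.35. The rest were Ipw 9.53, Mir300 7.07, Snhg11 9.14, Celf4 8.68, Rgs7 9.35, Elovl6 9.67, Myt1l 7.99, Auts2 8.23 and Usp29 7.68. In each of these genes vehicle 4 lay on the side of the treated arrays. It was the highest vehicle array for Polr2a, at 9.33, a gene that rose.

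Other vehicle arrays stood apart in 4 genes. Vehicle 5 was the lowest for Rgs8 (5.80) and Atp5g2 (9.88), vehicle 6 for Olig1 (7.93), and vehicle 1 the highest for Top2b (9.18). Among treated arrays, topotecan 6 was the lowest for Mdga2 (6.30), Mir300 (4.49) and Rbfox3 (6.53), topotecan 1 for Nkain2 (6.57), topotecan 3 for Top1 (9.23) and topotecan 4 for Rgs8 (7.49), while topotecan 4 was the highest for Unc5d (6.52).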

How the results depend on the processing

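The counts of genes in each direction depended on the scaling and on fold limits. With arrays centred on their medians 3736 genes fell and 1785 rose. At a fold of at least 1.5, 3664 probe sets passed, with 991 genes lower and 818 higher. At a fold of at least 2 the numbers were 860, 384 and 90. Leaving out each array in turn gave 7898 to 10757 probe sets, 2060 to 2787 genes lower and 2518 to 3626 higher, with the most calls without vehicle 4. The named genes that passed numbered 184 to 186 of 190, which follows largely from their choice as called genes whose groups do not overlap. The long-gene score differed by -0.474 to -0.447. The irinotecan difference ranged most, from 3 probe sets without irinotecan vehicle 1 to 858 without vehicle 4, with 137 after quantile normalization and 402 without dim probe sets.

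Same-numbered arrays correlated between -0.253 and 0.162 in their deviations from the group means. The values were not set against a reference, so they cannot settle whether arrays are paired by number. With the replicate block 7378 probe sets passed, 1828 genes fell and 2263 rose, and the irinotecan difference passed for 2 probe sets, Kcnj10 and Gfap. In all, 8 named genes lost their call with it: Bcl2l11, Cyc1, Gsr, Psmd1, Psmd8, Shmt2, Top1 and Wars. Top2b was the named gene whose sign turned, to -0.05 with centred arrays, where the median of all genes moved from 0.04 to -0.05. Of the other values for single genes, 3380 kept their side of the threshold, 25 lost the call and 8 gained one. The causes were not tested, other than that fewer arrays or a stricter limit enter by construction. Signals near background limit how far dim genes and miRNA genes can be seen to fall.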

Other observations

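Further gene classes are set beside all genes, of which 14.6% rose and 11.0% fell. Of 1926 genes annotated as long non-coding RNAs 348 rose and 63 fell, with a median of 0.13 where all genes had 0.04. Replication-dependent histone genes, which package newly copied DNA, gave 3 rises and 0 falls of 18, a share of rises near the background, with 1 rise when arrays were centred. Of 28 collagen genes 3 fell and 1 rose, a share of falls near the background, with 5 falls when arrays were centred and 5 rises without vehicle 4. Of the collagens 19 span over 100 kb, and their median was -0.03. Col25a1, a transmembrane collagen of neurons, fell by 0.52, and Col27a1, a fibrillar collagen, rose by 0.42.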
